A study of Homo sapiens with 12 samples.

Results

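The 10 genes described here belong to the BCL2 family, the proteins that decide whether the outer membrane of the mitochondrion is opened during apoptosis. They were chosen by name, with earlier results of these data known, and are 10 of the 61533 gene IDs in the RNA-seq files. BCL2, BCL2L1 and MCL1 encode the anti-apoptotic proteins BCL2, BCL-XL and MCL1, BAX and BAK1 encode the pore-forming effectors, and BCL2L11 (BIM), BID, PMAIP1 (NOXA), BBC3 (PUMA) and BIK encode BH3-only proteins. Total RNA of 3 untreated human ovarian cell lines was sequenced after depletion of ribosomal RNA, with 4 libraries per line. T1074 is an ovarian epithelial line immortalized with SV40, PEO-4 is labelled an ovarian cystadenocarcinoma line and is described as high-grade serous, and SKOV-3 is labelled serous cystadenocarcinoma although the study describes it as clear cell. The genotype of all 3 lines was labelled WT, each line stands for its type alone, and each was grown in its own medium, so that line and medium cannot be told apart. Nothing in the labels says whether the 4 replicates of a line came from separate cultures, so p-values measure the spread between these libraries, which may be technical.

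BCL2 family proteins act by binding each other. The anti-apoptotic members hold effectors and BH3-only proteins in a groove on their surface, the BH3-only members respond to particular stresses and fill that groove or activate BAX and BAK directly, and the activated effectors release cytochrome c. MCL1 and BCL-XL are well-known survival factors of ovarian carcinoma cells.

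The feature that joins all 10 proteins is the core of the BH3 helix, a leucine followed after any 3 residues by glycine or alanine and then aspartate. This pattern was found exactly 1 time in the leading protein product of each of the 10 genes. Glycine preceded the aspartate in 9 of them and alanine in BBC3. The pattern is short, and 24.9% of 19548 canonical GENCODE 44 proteins hold it, or 11.5% of the 7550 proteins of 54 to 350 residues, the size range of these products. The 30 coding bases around it are shown for each gene because they mark the element by which the members bind each other, with the codon of the leucine and the codons of glycine or alanine and aspartate in capitals (GENCODE 44 transcripts, hg38).
BCL2: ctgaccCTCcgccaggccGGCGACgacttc
BCL2L1: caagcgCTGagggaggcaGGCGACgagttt
MCL1: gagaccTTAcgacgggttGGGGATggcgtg
BAX: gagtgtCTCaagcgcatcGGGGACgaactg
BAK1: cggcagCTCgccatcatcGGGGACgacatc
BCL2L11: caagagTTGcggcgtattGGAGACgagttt
BID: aggcacCTCgcccaggtcGGGGACagcatg
PMAIP1: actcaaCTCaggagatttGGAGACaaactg
BBC3: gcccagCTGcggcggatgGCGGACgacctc
BIK: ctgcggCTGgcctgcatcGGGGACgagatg

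Each of these stretches lies within 1 coding exon. They are at chr18:63318355-63318384 on the minus strand for BCL2, chr20:31721928-31721957 on the minus strand for BCL2L1 and chr1:150578871-150578900 on the minus strand for MCL1. The effectors carry theirs at chr19:48955781-48955810 on the plus strand for BAX and chr6:33575393-33575422 on the minus strand for BAK1. Among the BH3-only genes the positions are chr2:111150097-111150126 (plus) for BCL2L11, chr22:17739421-17739450 (minus) for BID, chr18:59902667-59902696 (plus) for PMAIP1, chr19:47226585-47226614 (minus) for BBC3 and chr22:43127710-43127739 (plus) for BIK.

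The libraries held 19780836 to 55739060 expected counts, RSEM's estimates of fragments per transcript, and T1074 replicate 1 was the shallowest. Between 60.9% and 82.1% of a library's counts were in protein-coding genes. Markers separated the lines: EPCAM, an epithelial adhesion protein, averaged 0.0964 CPM (counts scaled to library size) in T1074, against 163 for PEO-4 and 24.5 for SKOV-3. The 4 Müllerian and ovarian carcinoma markers summed to 18.1 to 43.4 CPM in T1074, against 801 to 899 for PEO-4 and 155 to 192 for SKOV-3, but did not move together. PAX8 averaged 0.0951, 106 and 92.4 CPM, MUC16 0.105, 589 and 0.387 CPM, WT1 22.5, 162 and 0.943 CPM and SOX17 4.57, 0.794 and 76.1 CPM in T1074, PEO-4 and SKOV-3. T1074 is labelled epithelial, and the paper derives it from normal ovarian surface epithelium. Among its epithelial markers EPCAM and CDH1 were near 0, while KRT8 averaged 616 CPM and KRT7, KRT18 and KRT19 were present in every library. KRT8 and KRT18 did not pass between PEO-4 and T1074, whereas KRT7 and KRT19 were higher in PEO-4. Whether the label holds was not tested. Of the mesenchymal markers, VIM (634 CPM), COL1A1 (486 CPM) and CDH2 (193 CPM) were high in T1074, whereas COL1A2 (0.612 CPM) and DCN (1.76 CPM) were not. The summed CPM of the 6 mesenchymal markers was 870 to 1900 in T1074, against 3.27 to 4.52 for PEO-4 and 1026 to 2517 for SKOV-3, and that of the 6 epithelial markers 710 to 1942, 2377 to 3359 and 943 to 1829. PTPRC, the pan-leukocyte marker, was at 0 in every PEO-4 library and at most 0.294 CPM elsewhere, the 3 leukocyte markers together were at 1.72 to 7.86 CPM in T1074 and at most 0.580 CPM in the carcinoma lines, and the 2 endothelial markers reached 3.04 CPM. The part of these marker differences in the results on the BCL2 family was not tested, and fewer cells and less RNA per cell cannot be told apart in bulk samples.

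All 10 genes passed the filter on low counts. Levels between lines are given as CPM with TMM scaling factors, as mean ± SD over 4 libraries, and differences as log2 fold changes from the quasi-likelihood test of edgeR, adjusted over all 19898 genes tested with a threshold of 0.05. Levels between genes are given as TPM, which corrects for transcript length. On that scale MCL1 held nearly as much RNA as the other members together, with 47.1% ± 1.42 (SD, n = 4) of the family's TPM in T1074, against 49.0% ± 0.963 for PEO-4 and 46.1% ± 3.23 for SKOV-3. BCL2, the founding member of the family, held 0.797%, 0.333% and 0.491% of the family's TPM. Its mean TPM was 1.47, 0.36 and 0.678, near the middle of protein-coding genes, whereas MCL1 stood at about the 98th percentile in each line (98.5, 98.5 and 98.2).

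**Figure D1:**
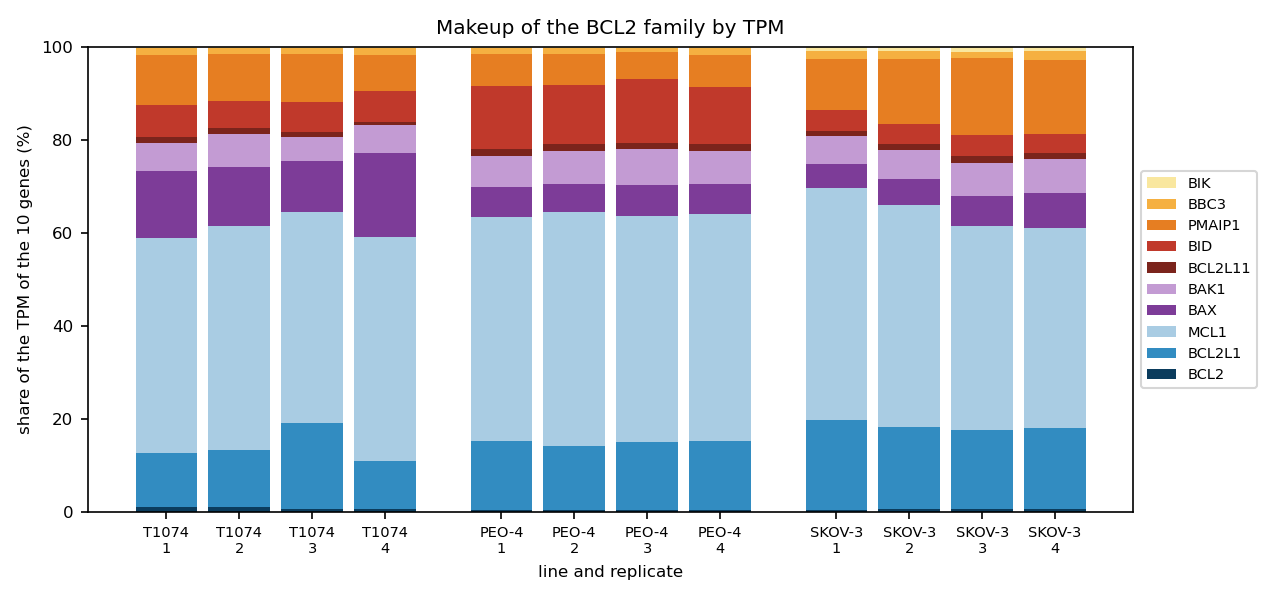
Share of the summed TPM of the 10 BCL2 family genes (y axis, percent) that each gene holds in each of the 12 libraries (x axis, line and replicate). MCL1 takes 43.0% to 50.4% of every bar, the BAX segment is larger in T1074 (10.8% to 18.1%) than in the other lines, and BID is largest in PEO-4 (12.2% to 13.7%).

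The 3 anti-apoptotic genes together made up 61.1% ± 2.62 of the family's TPM in T1074, against 63.9% ± 0.496 for PEO-4 and 64.5% ± 4.04 for SKOV-3, and these ranges overlapped. The effectors took 20.0% ± 3.28 in T1074 against 13.5% ± 0.600 and 12.9% ± 1.67, and the lowest T1074 library (16.0%) was above the highest of PEO-4 (14.4%) and of SKOV-3 (14.9%). BH3-only genes took 18.9% ± 1.57, 22.5% ± 0.608 and 22.6% ± 2.52. Within that class PMAIP1 led in T1074 and SKOV-3, with 9.72% and 14.4% of the family's TPM, while BID led in PEO-4 with 13.0%. The TPM ratio of PMAIP1 to BID was 1.14 to 1.75 in T1074, against 0.427 to 0.567 for PEO-4 and 2.51 to 3.99 for SKOV-3, so the 3 lines did not overlap. BAX exceeded BAK1 in TPM by a factor of 2.31 ± 0.551 in T1074, whereas the ratio was 0.882 ± 0.0565 in PEO-4 and 0.924 ± 0.0769 in SKOV-3. These shares and ratios are descriptions without a test.

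Of the 10 genes, 9 differed somewhere among the 3 lines, beside 90.4% of all genes tested, and MCL1 did not (adjusted p = 0.813, edgeR). Between PEO-4 and T1074, 6 of the 10 differed, when 74.1% of all genes did. BAK1, BCL2L11 and BID were higher in PEO-4 (higher: 36.3% of all genes) and BCL2, BAX and PMAIP1 were lower (lower: 37.8%). Between SKOV-3 and T1074, 9 differed, beside a background of 67.8%, of which BCL2L1, BAK1, BCL2L11, PMAIP1, BBC3 and BIK were higher in SKOV-3 (33.3% of all genes) and BCL2, BAX and BID lower (34.5%). Between the carcinoma lines, 5 differed, beside 75.2% of all genes. BID was higher in PEO-4 (38.5% of all genes) and BCL2, PMAIP1, BBC3 and BIK were lower (36.7%). The median log2 fold change of the 10 genes was 0.04 for PEO-4 against T1074, 0.34 for SKOV-3 against T1074 and -0.22 for PEO-4 against SKOV-3, where that of all genes tested was -0.01, -0.03 and 0.05. These counts say little about the family as such, since most genes differed between these lines.

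**Figure D2:**
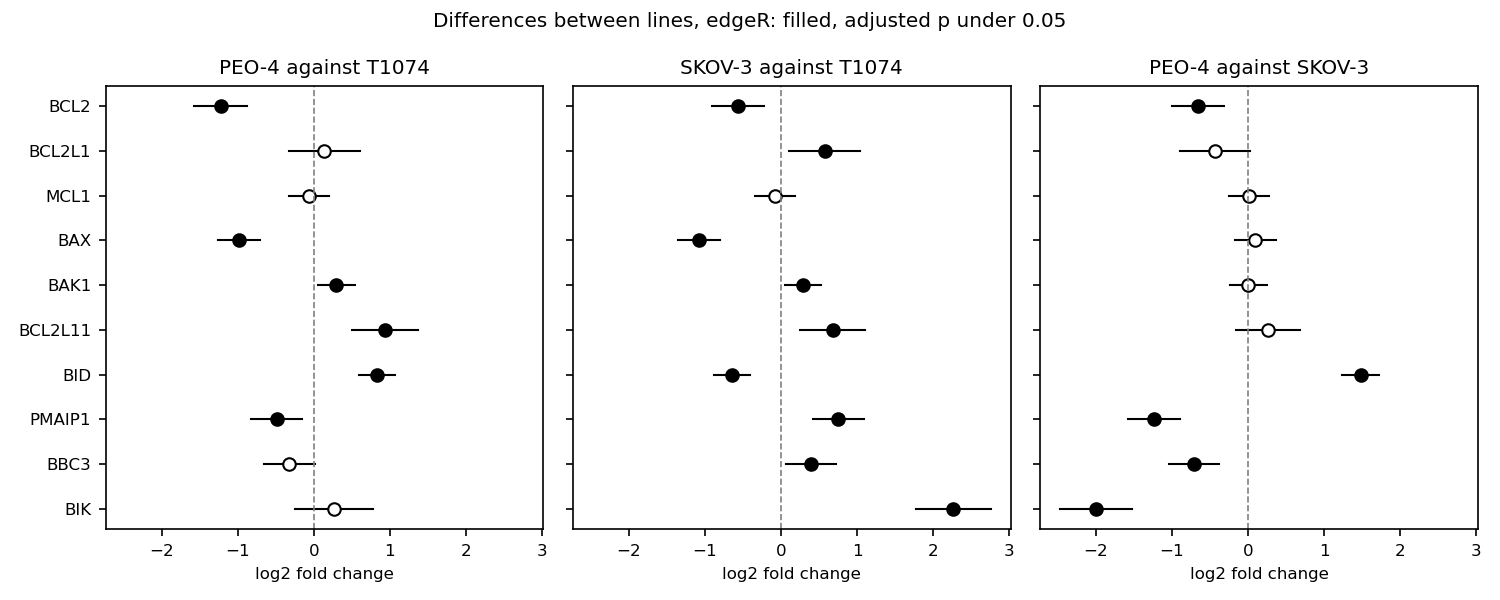
Log2 fold change (x axis) of each of the 10 genes (y axis) in the 3 comparisons, with bars for the 95% interval from edgeR. Filled points have an adjusted p under 0.05: 6, 9 and 5 genes, with BIK at 2.27 and BID at 1.48 the largest positive values and MCL1 beside 0 in each panel.

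The size of these differences depends on the scale. TPM as deposited carries no TMM factor, and on log2(TPM + 0.1) the median of all genes tested was -0.57 for PEO-4 against T1074, -0.37 for SKOV-3 against T1074 and -0.14 for PEO-4 against SKOV-3. With TMM, 7225 genes were higher and 7524 lower in PEO-4 than in T1074, and on the TPM scale 3815 and 10420. For SKOV-3 against T1074 the counts were 6624 and 6874 with TMM, and 3326 and 8745 by TPM. The directions given here for members are therefore relative to most genes of the library. By TPM, MCL1 (-0.66, limma adjusted p = 0.00538) and BBC3 (-0.89, limma adjusted p = 0.000311) passed as lower in PEO-4 than in T1074, BCL2L1 turned to lower there (-0.53, limma adjusted p = 0.0345), and BID missed the threshold (0.28, limma adjusted p = 0.147). Against the median of all genes on that scale these 4 stood at -0.09, -0.33, 0.04 and 0.85. For SKOV-3 against T1074, BCL2L1 (0.09) and PMAIP1 (0.18) did not pass by TPM and BBC3 changed sign (-0.16), which is 0.46, 0.55 and 0.20 above the median.

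BCL2, which binds BIM and BAX at the mitochondrion and the endoplasmic reticulum, was highest in T1074. Its level was 20.6, 22.7, 17.8 and 14.3 CPM in the 4 T1074 libraries, 9.61, 7.55, 6.38 and 8.72 CPM in PEO-4, and 11.4, 13.2, 11.9 and 14.3 CPM in SKOV-3. All PEO-4 libraries were below all those of the other lines, while the highest SKOV-3 library lay just above the lowest of T1074. BCL2 fell by 1.22 ± 0.163 (SE) on the log2 scale in PEO-4 relative to T1074 (edgeR adjusted p = 9.32e-06), or 2.33-fold. The difference was -0.57 ± 0.160 for SKOV-3 against T1074 (edgeR adjusted p = 0.00612) and -0.66 ± 0.162 for PEO-4 against SKOV-3 (edgeR adjusted p = 0.00201). All 3 calls held without any of the 12 libraries.

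BCL2L1 makes BCL-XL, the longer-lived guard of BAX and BAK. It was measured at 94.7, 109, 211 and 91.2 CPM in T1074, at 135, 150, 140 and 134 CPM in PEO-4 and at 220, 179, 170 and 185 CPM in SKOV-3. T1074 replicate 3 was above every PEO-4 library and inside the SKOV-3 range, whereas the other T1074 libraries were below every library of both carcinoma lines. SKOV-3 was 1.49-fold above T1074 (log2 0.58 ± 0.217, edgeR adjusted p = 0.0292), and PEO-4 was not called (0.14 ± 0.216, 95% interval -0.32 to 0.60, edgeR adjusted p = 0.572). Without T1074 replicate 3 the log2 fold change was 0.51 for PEO-4 (edgeR adjusted p = 0.000905) and 0.95 for SKOV-3 (edgeR adjusted p = 4.73e-06). The SKOV-3 call was lost without T1074 replicate 1, 2 or 4 or without SKOV-3 replicate 1, with adjusted p up to 0.0825 by edgeR, with library size only (0.38, edgeR adjusted p = 0.137) and in a fit of the 8 libraries alone (0.57, edgeR adjusted p = 0.0595). PEO-4 lay below SKOV-3 in every library (-0.44 ± 0.216, edgeR adjusted p = 0.0811), and that difference passed without T1074 replicate 3 (adjusted p = 0.00117, edgeR), in a fit of the 8 libraries alone (-0.43, edgeR adjusted p = 0.000956), with no filter (-0.49, edgeR adjusted p = 0.0313) and by TPM (-0.62, limma adjusted p = 0.0176).

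MCL1, a short-lived protein that holds BAK, BIM and NOXA, was the most abundant member by TPM and showed no difference as a gene. Its CPM was 455, 486, 580 and 484 in T1074, 415, 552, 531 and 422 in PEO-4 and 518, 470, 462 and 452 in SKOV-3. The 3 ranges overlapped throughout. The log2 fold change was -0.06 (95% interval -0.33 to 0.20) for PEO-4 against T1074, -0.08 (-0.34 to 0.19) for SKOV-3 against T1074 and 0.01 (-0.25 to 0.28) for PEO-4 against SKOV-3, with edgeR adjusted p of 0.659, 0.604 and 0.932. Its sign moved between settings in all 3 comparisons, and by TPM, as given above, it was lower in PEO-4.

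**Figure D3:**
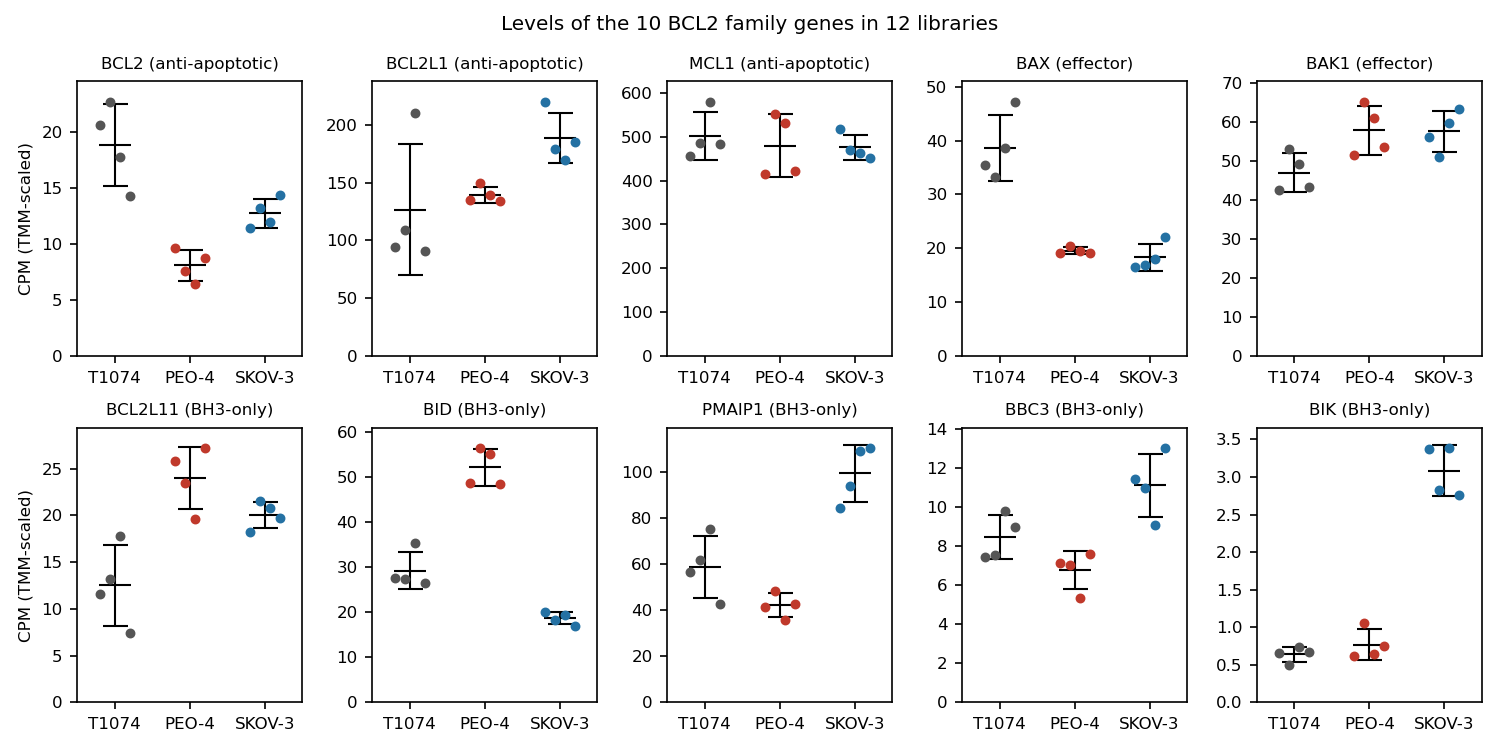
Level of each of the 10 genes in CPM with TMM scaling (y axes, each from 0) in the 3 lines (x axes), with 1 point per library, a dash for the mean and bars for the SD of 4 libraries. BAX and BCL2 are highest in T1074, BID is highest in PEO-4, BIK and PMAIP1 are highest in SKOV-3, and T1074 replicate 3 stands above its group for BCL2L1 (211 CPM) and BID (35.4 CPM).

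Of the 2 effectors, BAX was lower in both carcinoma lines than in T1074, while small increases of BAK1 did not hold in every setting. BAX was at 35.5, 33.2, 38.7 and 47.2 CPM in T1074, at 19.2, 20.4, 19.6 and 19.1 CPM in PEO-4 and at 16.5, 16.9, 17.9 and 22.0 CPM in SKOV-3. Every T1074 library was above every library of the carcinoma lines, which overlapped with each other. BAX was 1.98-fold lower in PEO-4 than in T1074 (log2 -0.98 ± 0.126, edgeR adjusted p = 6.36e-06) and 2.11-fold lower in SKOV-3 (-1.08 ± 0.126, edgeR adjusted p = 3.26e-06), and both calls held without any of the libraries. Between PEO-4 and SKOV-3 the log2 fold change was 0.09, with a 95% interval of -0.18 to 0.36.

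BAK1, the effector that resides on the mitochondrion and is held by MCL1 and BCL-XL, was at 42.5, 52.99, 49.2 and 43.2 CPM in T1074, 51.5, 65.1, 60.9 and 53.5 CPM in PEO-4 and 56.2, 50.9, 59.8 and 63.4 CPM in SKOV-3. The ranges overlapped. Small increases passed in PEO-4 (log2 0.30 ± 0.112, edgeR adjusted p = 0.0264) and in SKOV-3 (0.29 ± 0.112, edgeR adjusted p = 0.0312). The calls did not hold in every setting. Without T1074 replicate 1 or 4 both were lost (log2 0.26 in each case, adjusted p 0.0620 to 0.0749 by edgeR), as was the SKOV-3 call without SKOV-3 replicate 3 or 4. With library size only the values were 0.14 and 0.09 (edgeR adjusted p = 0.419 and 0.631), and with length-scaled counts SKOV-3 stood at 0.27 (edgeR adjusted p = 0.0526). On the TPM scale BAK1 was lower in both, by -0.46 and -0.24, which is 0.11 and 0.12 above the median of all genes on that scale.

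Among the BH3-only genes, BID differed in all 3 comparisons. BID is cleaved by caspase-8 and so joins death receptors to the mitochondrion. It was at 27.7, 27.4, 35.4 and 26.5 CPM in T1074, at 48.8, 56.4, 55.0 and 48.5 CPM in PEO-4 and at 20.1, 18.3, 19.4 and 17.1 CPM in SKOV-3. No library of any line overlapped with another line. BID was 1.78-fold higher in PEO-4 than in T1074 (log2 0.84 ± 0.112, edgeR adjusted p = 9.40e-06), 1.56-fold lower in SKOV-3 than in T1074 (-0.64 ± 0.112, edgeR adjusted p = 0.000141) and 2.79-fold higher in PEO-4 than in SKOV-3 (1.48 ± 0.113, edgeR adjusted p = 2.80e-08). The calls held without any 1 of the 12 libraries, and by TPM the 1.48 between the carcinoma lines was 1.25.

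PMAIP1 encodes NOXA, which binds MCL1 and leads to its degradation. It ran the other way from BID between the carcinoma lines, with 84.4, 94.0, 109 and 110 CPM in SKOV-3 and 41.5, 48.5, 35.9 and 42.6 CPM in PEO-4. T1074 lay between them and varied widely, with 56.5, 61.6, 75.0 and 42.5 CPM, so that its lowest library fell within the PEO-4 range. PMAIP1 was 2.36-fold lower in PEO-4 than in SKOV-3 (log2 -1.24 ± 0.158, edgeR adjusted p = 5.76e-06) and 1.69-fold higher in SKOV-3 than in T1074 (0.75 ± 0.156, edgeR adjusted p = 0.000637). The decrease in PEO-4 relative to T1074 (-0.48 ± 0.156, edgeR adjusted p = 0.0120) was lost without PEO-4 replicate 1, 3 or 4, with a log2 fold change of -0.36, -0.30 and -0.37 and adjusted p up to 0.130 by edgeR, and in a fit of the 8 libraries alone. The TPM of PMAIP1 per TPM of MCL1, its main partner, was 0.207 ± 0.0341 in T1074, against 0.135 ± 0.0105 for PEO-4 and 0.317 ± 0.0730 for SKOV-3, and the 3 lines overlapped only between T1074 (0.158 to 0.233) and SKOV-3 (0.223 to 0.377).

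BCL2L11 makes BIM, which binds all anti-apoptotic members and is induced by loss of growth factors. T1074 had 11.6, 13.2, 17.8 and 7.46 CPM, PEO-4 had 25.8, 23.5, 19.6 and 27.2 CPM and SKOV-3 had 18.2, 21.5, 20.8 and 19.7 CPM. Both carcinoma lines were above every T1074 library and overlapped with each other. The increase was 1.92-fold in PEO-4 (log2 0.94 ± 0.202, edgeR adjusted p = 0.000706) and 1.60-fold in SKOV-3 (0.68 ± 0.201, edgeR adjusted p = 0.00799). Counts from TPM scaled by transcript length gave 0.33 for SKOV-3, which missed the threshold (edgeR adjusted p = 0.0932), as did library size only (0.48, edgeR adjusted p = 0.0529), and on the TPM scale the sign turned in both lines (-0.26 and -0.14, or 0.31 and 0.22 above the median of all genes). PEO-4 against SKOV-3 was not called (0.26, edgeR adjusted p = 0.245), but passed in a fit of the 8 libraries alone (0.27, edgeR adjusted p = 0.0353).

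BBC3 encodes PUMA, an activator of BAX and BAK. It was low, at 7.48, 7.58, 9.82 and 8.98 CPM in T1074, 7.15, 7.07, 5.37 and 7.59 CPM in PEO-4 and 11.4, 10.97, 9.08 and 13.0 CPM in SKOV-3. PEO-4 was below SKOV-3 in every library (log2 -0.71 ± 0.154, edgeR adjusted p = 0.000724). SKOV-3 was 1.31-fold above T1074 with overlapping ranges (0.39 ± 0.153, edgeR adjusted p = 0.0349), a call lost without T1074 replicate 1 or 2 or without SKOV-3 replicate 1, 2 or 4 (log2 0.32 to 0.41, adjusted p up to 0.0975 by edgeR). It was also lost with library size only (0.19, edgeR adjusted p = 0.298), with length-scaled counts (0.35, edgeR adjusted p = 0.0708) and with the replicate block (0.38, edgeR adjusted p = 0.0533). The log2 fold change of PEO-4 against T1074 was -0.32, with a 95% interval of -0.65 to 0.01. That difference passed with library size only (-0.48, edgeR adjusted p = 0.0148) and without T1074 replicate 2 (-0.39, edgeR adjusted p = 0.0494).

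BIK, a BH3-only protein of the endoplasmic reticulum, was the least abundant member by CPM. Its level was 0.652, 0.504, 0.735 and 0.671 CPM in T1074, 0.615, 1.06, 0.645 and 0.757 CPM in PEO-4 and 3.37, 2.82, 3.38 and 2.77 CPM in SKOV-3. SKOV-3 stood clear of the other lines, which overlapped. It was 4.81-fold above T1074 (log2 2.27 ± 0.229, edgeR adjusted p = 7.15e-07) and 3.99-fold above PEO-4 (2.00 in favour of SKOV-3, SE 0.221, edgeR adjusted p = 1.37e-06). In TPM the lines stood at 0.395, 0.283 and 1.32, so that even in SKOV-3 BIK held only 0.952% of the family's TPM.

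Several of these genes make proteins of unequal or opposed function from 1 locus, and the files give estimates for each transcript. The 10 genes had 90 transcripts, of which 50 passed the filter. In PEO-4 against T1074, 11 of these were higher and 13 lower, beside 41.9% of the 76043 transcripts tested that differed. In SKOV-3 against T1074, 9 were higher and 8 lower (background 36.2%), and in PEO-4 against SKOV-3, 12 were higher and 15 lower (background 45%). Transcript levels are RSEM's division of reads that fit several transcripts, not counts of junction reads.

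MCL1 was level as a gene but not in its transcripts. MCL1-201 skips exon 2 (chr1:150578244-150578491, 248 bases) and encodes 271 residues in place of 350. The short protein, MCL1S, keeps the BH3 core but lacks the other domains that build the groove, and is known as a promoter of apoptosis. The junctions are shown because they are where the transcripts differ, with the last 15 bases of exon 1 in lower case and the first 15 bases of the next exon in capitals.
MCL1-202: agacggccttccaagGCATGCTTCGGAAAC
MCL1-201: agacggccttccaagGATGGGTTTGTGGAG

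The 271-residue product held 1.57%, 2.34%, 1.63% and 2.63% of MCL1 coding TPM in the 4 T1074 libraries. It held 15.6%, 16.4%, 14.2% and 13.8% in PEO-4 and 3.14%, 2.71%, 1.86% and 1.91% in SKOV-3. Every PEO-4 library was over 4 times any other library. MCL1-201 itself rose in PEO-4, to 22.0, 28.1, 16.9 and 19.9 CPM from 1.88 to 3.48 CPM in T1074 (log2 2.90 ± 0.298, edgeR adjusted p = 1.31e-05) and 2.98 to 6.40 CPM in SKOV-3 (PEO-4 against SKOV-3: 2.34 ± 0.290, edgeR adjusted p = 5.38e-05). MCL1-202, the main full-length transcript by counts, was lower in PEO-4, with 169 to 256 CPM against 271 to 350 CPM in T1074 (-0.63 ± 0.136, edgeR adjusted p = 0.00306) and 291 to 326 CPM in SKOV-3 (-0.61 ± 0.136, edgeR adjusted p = 0.00329). MCL1-208, which encodes the same 350 residues and held more TPM than MCL1-202 in PEO-4 (22.4 against 14.4), did not pass there (0.19 against T1074, edgeR adjusted p = 0.404, and -0.39 against SKOV-3, edgeR adjusted p = 0.0848). The 350-residue product still held 84.9% ± 1.23 of coding TPM in PEO-4, against 97.6% ± 0.450 and 97.3% ± 0.626. The retained-intron transcript MCL1-206 was also higher in PEO-4 by CPM (98.4 on average, against 57.5 in T1074 and 41.1 in SKOV-3). Its range of 65.2 to 158 CPM in PEO-4 overlapped with 48.0 to 68.2 CPM in T1074, and the mean TPM was 6.36 against 6.22. Coding transcripts made up 80.1% of MCL1 TPM in PEO-4, against 87.2% and 91.8%.

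**Figure D4:**
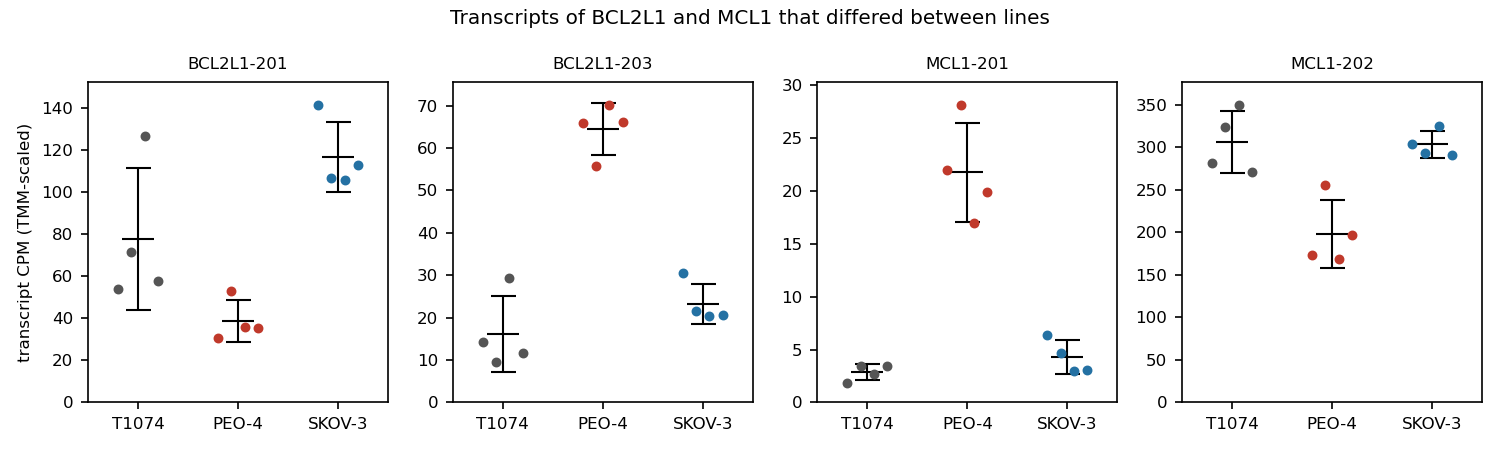
CPM with TMM scaling (y axes, each from 0) of 2 BCL2L1 and 2 MCL1 transcripts in the 3 lines (x axes), with 1 point per library, a dash for the mean and bars for the SD of 4 libraries. In PEO-4, BCL2L1-203 (55.8 to 70.1 CPM) and MCL1-201 (16.9 to 28.1 CPM) are above every library of the other lines, and BCL2L1-201 and MCL1-202 are below them.

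In PEO-4, RSEM's estimates differed for BCL2L1 transcripts with unlike 5′ ends, and start sites themselves were not examined. BCL2L1-201 and BCL2L1-203 are among 10 transcripts that encode the same 233-residue BCL-XL, and BCL2L1-201 has an added noncoding first exon. BCL2L1-201 was at 54.1, 71.4, 127 and 57.8 CPM in T1074, 30.4, 53.1, 35.7 and 35.2 CPM in PEO-4 and 141, 107, 106 and 113 CPM in SKOV-3. BCL2L1-203 was at 14.2, 9.48, 29.3 and 11.7 CPM in T1074, 65.9, 55.8, 70.1 and 66.2 CPM in PEO-4 and 30.4, 21.5, 20.5 and 20.6 CPM in SKOV-3. PEO-4 was thus the only one of the 3 lines in which BCL2L1-203 exceeded BCL2L1-201, and it did so in 4 of 4 libraries. Relative to T1074, BCL2L1-203 rose in PEO-4 by a log2 fold change of 2.00 ± 0.307 (edgeR adjusted p = 0.000283) and BCL2L1-201 fell by 1.01 ± 0.266 (edgeR adjusted p = 0.00960). Transcripts of BCL-XL also differed in SKOV-3. BCL2L1-209 and BCL2L1-214 were higher there than in T1074 (2.58 and 1.95, edgeR adjusted p = 0.00102 and 0.00165).

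BCL2L1-202 and BCL2L1-205 encode BCL-XS, a 170-residue form that opposes BCL-XL. They use a splice site 189 bases upstream within exon 2, which removes 63 residues (chr20:31721655-31721843). The exon junctions of the long and the short form are shown with the end of exon 2 in lower case and the start of exon 3 in capitals.
BCL2L1-201: gagaacggcggctggGATACTTTTGTGGAA
BCL2L1-202: cagagctttgaacagGATACTTTTGTGGAA

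The 170-residue product held 13.3%, 14.5%, 16.8% and 5.43% of BCL2L1 coding TPM in T1074, 7.34%, 6.39%, 7.22% and 6.15% in PEO-4 and 3.61%, 5.24%, 6.02% and 3.87% in SKOV-3. T1074 was high in 3 of 4 libraries, while replicate 4 fell below PEO-4 and within the SKOV-3 range. BCL2L1-202 was lower in PEO-4 than in T1074 (-2.66 ± 0.850, edgeR adjusted p = 0.0254), from a T1074 mean of 4.66 CPM in which replicate 3 alone reached 13.4 CPM, and the ranges overlapped. BCL2L1-205 was lower in SKOV-3 than in T1074 (-1.51 ± 0.504, edgeR adjusted p = 0.0355), with overlapping ranges of 1.53 to 7.27 and 3.69 to 16.9 CPM. BCL2L1-202 did not differ between these lines (-0.04, edgeR adjusted p = 0.983).

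**Figure D5:**
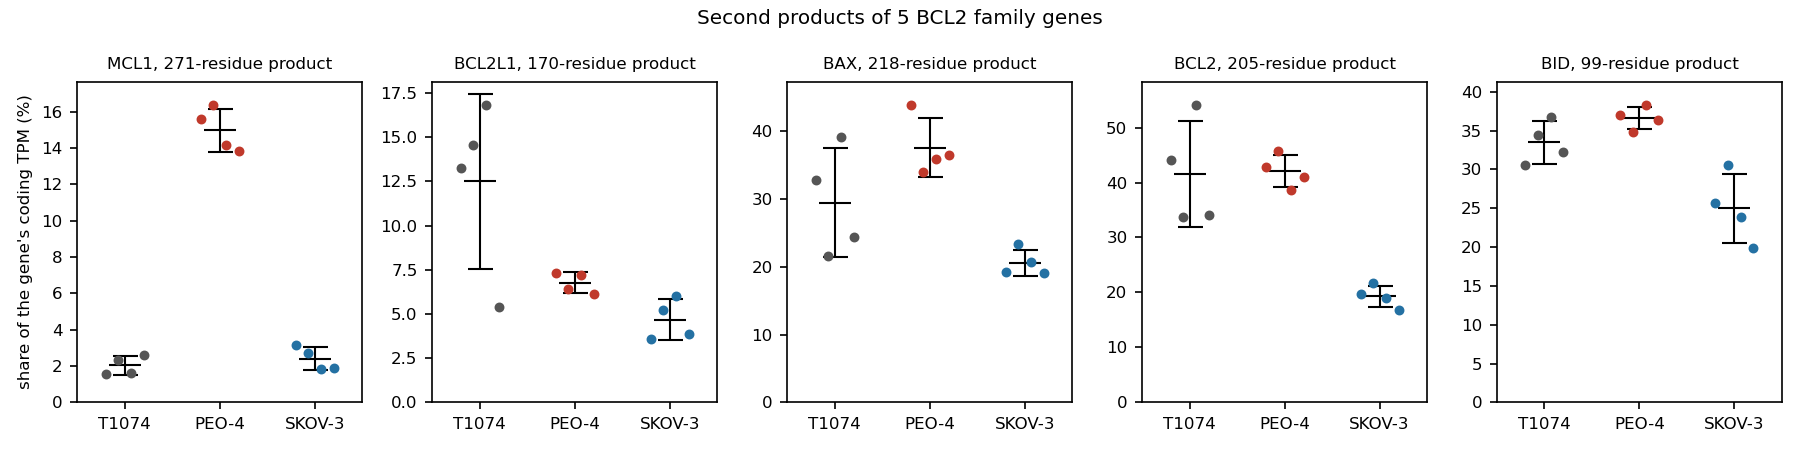
Share of each gene's coding TPM (y axes, percent, each from 0) held by a product other than the leading one in the 3 lines (x axes), with 1 point per library, a dash for the mean and bars for the SD of 4 libraries. The 271-residue MCL1 product is at 13.8% to 16.4% in PEO-4 and at most 3.14% elsewhere, and the means of the 205-residue BCL2 and 99-residue BID products are lowest in SKOV-3, where the BID ranges of SKOV-3 and T1074 touch.

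The leading product of each gene was compared between lines as its share of the gene's coding TPM. BIK made a single product, so 27 comparisons of 9 genes were made with a two-sided exact permutation test of 4 against 4 libraries, which cannot give a p below 0.0286. None passed after adjustment over the 27 (smallest adjusted p = 0.0857, permutation). With that floor, most of the 27 comparisons would have had to reach the smallest p for any to pass. The test therefore could not decide on a single gene, and the shares are given as levels. Before adjustment 9 comparisons gave that smallest p of 0.0286 by the exact test. They were those of MCL1 in PEO-4 against either line, BBC3 in either carcinoma line against T1074, BID in SKOV-3 against either line, and BCL2, BCL2L1 and BAX between PEO-4 and SKOV-3.

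The leading BAX product, the 192-residue BAX-alpha, held 68.6% ± 7.37 of BAX coding TPM in T1074, against 60.3% ± 4.25 for PEO-4 and 77.5% ± 2.10 for SKOV-3. A 218-residue product, which differs at the carboxyl end, held 29.5% ± 7.99, 37.6% ± 4.32 and 20.6% ± 1.96. Both transcripts were lower in both carcinoma lines than in T1074, but to unequal degrees. BAX-202, which encodes the 192-residue form, was at -1.22 ± 0.187 in PEO-4 and -0.69 ± 0.185 in SKOV-3 (edgeR adjusted p = 0.000265 and 0.0120). BAX-201 was at -0.67 ± 0.168 in PEO-4 and -1.36 ± 0.171 in SKOV-3 (edgeR adjusted p = 0.00727 and 8.45e-05).

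BCL2 transcripts fell into a 239-residue form with the membrane anchor and a 205-residue form without it. The shorter form held 41.5% ± 9.66 of BCL2 coding TPM in T1074, against 42.1% ± 2.96 for PEO-4 and 19.3% ± 1.96 for SKOV-3. A 46-residue product appeared mainly in SKOV-3, at 10.7% ± 7.55, which was a mean of only 0.075 TPM. It was at 0 in SKOV-3 replicate 2 and in every PEO-4 library, and its transcript did not pass the filter on low counts. The transcript of the 205-residue form, BCL2-203, was lower in SKOV-3 than in T1074 (-1.55 ± 0.256, edgeR adjusted p = 0.000598), whereas BCL2-202, which carries most of the 239-residue form, was at 0.19 (edgeR adjusted p = 0.477). All of these transcripts were below 10 CPM on average in each line.

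BID transcripts gave a 195-residue product with 65.7% ± 2.89, 61.0% ± 1.19 and 74.9% ± 4.38 of coding TPM in T1074, PEO-4 and SKOV-3, and a 99-residue product with 33.5% ± 2.71, 36.6% ± 1.43 and 25.0% ± 4.42. BID-201, which encodes the longest BID product, had no count in any SKOV-3 library. It was at 2.26, 3.49, 2.15 and 2.29 CPM in PEO-4 and 0.188, 0.186, 0.806 and 0.791 CPM in T1074. Against a floor of 3 counts per library it was at least 37.6-fold lower in SKOV-3 than in PEO-4 and, relative to T1074, at least 7.27-fold lower, a bound that covers counting error only. BID-201 passed the filter on low counts only through PEO-4, and it was named after its values were seen. Its levels and these bounds are therefore a description and are not read as a result. The 2 transcripts of the 195-residue form did not move alike. BID-208 in SKOV-3 was at 0.22 relative to T1074 (edgeR adjusted p = 0.395), while BID-211 was at -0.61 ± 0.135 (edgeR adjusted p = 0.00384).

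PMAIP1 was read mainly as the 54-residue NOXA, with 78.0% ± 6.23 of coding TPM in T1074, against 87.0% ± 4.89 for PEO-4 and 85.9% ± 3.33 for SKOV-3, and a 136-residue product made up the rest. BBC3 gave the 193-residue PUMA at 89.1% ± 4.51, 99.4% ± 1.23 and 98.3% ± 0.973. In PEO-4, however, only 72.0% of BBC3 TPM was coding, against 92.2% and 93.4%, and its retained-intron transcript BBC3-205 was higher there than in T1074 (1.77 ± 0.400, edgeR adjusted p = 0.00382) and in SKOV-3 (1.25 ± 0.389, edgeR adjusted p = 0.0210). For BAK1 the 211-residue product held at least 96.7% in every library. For BCL2L11 the 198-residue BIM-EL held 90.1%, 90.6% and 90.6% of coding TPM, but 52.9%, 36.6% and 47.4% of its TPM was in transcripts whose versioned ID is not in GENCODE 44 and whose product was not assigned here.

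The family has 11 further genes that were looked at in the same fit. Of these, BCL2A1, BCL2L10, BCL2L14 and BCL2L15 passed the filter only through PEO-4 and are left out of the counts. Of the other 7, 2 were higher and 4 lower in PEO-4 than in T1074 (all genes: 36.3% and 37.8%), 2 higher and 3 lower in SKOV-3 than in T1074 (33.3% and 34.5%), and 2 higher and 2 lower in PEO-4 than in SKOV-3 (38.5% and 36.7%). Of the anti-apoptotic genes, BCL2L2 (BCL-w) was at 30.0 ± 3.92 CPM in PEO-4 against 19.6 ± 1.74 in T1074 (0.62 ± 0.118, edgeR adjusted p = 0.000256) and 14.2 to 17.7 in SKOV-3. BCL2A1 (BFL-1) was at 0.822 ± 0.221 CPM in PEO-4, but at 0 in 2 of 4 T1074 and 3 of 4 SKOV-3 libraries, and BCL2L10 was likewise low everywhere, with 0.570 ± 0.123 CPM in PEO-4, 0.0638 in T1074 and 0.0246 in SKOV-3. BCL2A1 and BCL2L10 passed the filter on low counts only through PEO-4, so their levels are given as a description.

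BOK, an effector-like member, was lower in both carcinoma lines (-0.50 ± 0.154 in PEO-4 and -0.77 ± 0.155 in SKOV-3, edgeR adjusted p = 0.00892 and 0.000483), as BAX was. Among BH3-only genes, BMF, which binds the cytoskeleton, was at 6.22 to 9.43 CPM in T1074, against 3.32 ± 0.868 for PEO-4 and 22.4 ± 2.35 for SKOV-3. It passed in all 3 comparisons and was lower in PEO-4 than in SKOV-3 by a log2 fold change of -2.75 ± 0.188 (edgeR adjusted p = 8.47e-09). HRK was highest in SKOV-3 (6.91 ± 2.81 CPM) and lowest in T1074 (0.991 ± 0.436 CPM), with PEO-4 at 3.30 ± 0.576 CPM. BAD, which growth factor signalling keeps inactive, was at 36.8, 34.7 and 33.6 CPM and did not pass in any comparison. BCL2L13 and BCL2L12 were lower in both carcinoma lines, by -0.73 and -1.20 in PEO-4, and BCL2L14 and BCL2L15, which passed the filter only through PEO-4, were at 0.479 and 0.817 CPM there and at most 0.0857 CPM on average in the other lines.

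Downstream of the mitochondrion, 13 genes of the apoptosome, its caspases and their nucleases were tested. In PEO-4 against T1074, 2 were higher and 8 lower, with a median of -0.88, where 36.3% and 37.8% of all genes were higher and lower. In SKOV-3 against T1074, 4 were higher and 5 lower (median -0.17, all genes 33.3% and 34.5%), and in PEO-4 against SKOV-3, 3 were higher and 7 lower (median -0.56, all genes 38.5% and 36.7%). CYCS, cytochrome c itself, was lower in both carcinoma lines (-0.88 ± 0.133 and -1.09 ± 0.133, edgeR adjusted p = 2.90e-05 and 4.80e-06). DIABLO, which frees caspases from the IAP proteins, was higher in both (0.39 and 0.23, edgeR adjusted p = 0.00202 and 0.0445), DFFA was lower in PEO-4 (-0.47) and ENDOG was higher in SKOV-3 (1.20).

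All 7 IAP genes, which encode inhibitors of caspases and relatives, passed the filter. Of these, 1 was higher and 3 lower in PEO-4 than in T1074 and 4 higher and 3 lower in SKOV-3 than in T1074, while 3 were higher and 4 lower in PEO-4 than in SKOV-3, with medians of -0.60, 0.45 and -0.69. Of all genes, 74.1%, 67.8% and 75.2% differed in these comparisons. The counts and medians include BIRC7, which passed the filter only through SKOV-3 (0.719 CPM, against 0.0057 in T1074 and 0 in PEO-4). Its calls as higher in SKOV-3 than in T1074 and lower in PEO-4 than in SKOV-3 were favoured by the filter. They are therefore not read as a result. BIRC2 was lower in PEO-4 (-0.60 ± 0.101, edgeR adjusted p = 9.32e-05) and higher in SKOV-3 (1.00 ± 0.102, edgeR adjusted p = 7.21e-07). XIAP was at -0.23 (edgeR adjusted p = 0.0709) and 0.46 (edgeR adjusted p = 0.00148). BIRC6 was higher in both lines, at 0.86 and 0.45, and BIRC5, a gene of dividing cells, lower in both, at -0.71 and -1.69.

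The death receptor arm, which reaches the mitochondrion through BID, had 13 of its 14 genes tested. In PEO-4 against T1074, 2 were higher and 8 lower (median -0.88, all genes 36.3% and 37.8%), in SKOV-3 against T1074, 3 and 4 (median -0.18, all genes 33.3% and 34.5%), and in PEO-4 against SKOV-3, 2 and 10 (median -0.59, all genes 38.5% and 36.7%). These counts and medians include TNFRSF10C, which passed the filter only through SKOV-3 (0.523 CPM, against 0.036 in T1074 and 0.013 in PEO-4). Its calls as higher in SKOV-3 than in T1074 and lower in PEO-4 than in SKOV-3 were favoured by the filter. They are therefore not read as a result. CASP8, whose product cleaves BID, was lower in PEO-4 than in T1074 (-0.31 ± 0.133, edgeR adjusted p = 0.0450) and than in SKOV-3 (-0.56 ± 0.133, edgeR adjusted p = 0.00144). In these comparisons BID itself was higher in PEO-4. The receptor gene TNFRSF10B was lower in both carcinoma lines, at -0.88 and -0.58, TNFRSF1A was higher in SKOV-3 (0.70) and FADD did not pass in any comparison.

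Of 6 other known regulators of BH3-only genes, 1 was higher and 4 lower in PEO-4 than in T1074, 2 higher and 2 lower in SKOV-3 than in T1074, and 1 higher and 4 lower in PEO-4 than in SKOV-3 (medians -1.16, 0.31 and -0.99), where 74.1%, 67.8% and 75.2% of all genes differed. ATF4, a stress factor that induces PMAIP1, was lower in PEO-4 than in T1074 (-1.27 ± 0.176, edgeR adjusted p = 1.36e-05) and than in SKOV-3 (-1.30 ± 0.176, edgeR adjusted p = 1.09e-05). The mean of ATF4 was 597 CPM in SKOV-3 and 586 CPM in T1074. Whether ATF4 has a part in the levels of PMAIP1 was not tested. DDIT3 was lower in PEO-4 than in SKOV-3 (-0.69, edgeR adjusted p = 0.0382). E2F1 and ATF3 were lower in both carcinoma lines than in T1074, by -3.46 and -1.78 in PEO-4 and -2.03 and -1.62 in SKOV-3. The other 2 regulators were FOXO1 and FOXO3. In T1074, PEO-4 and SKOV-3, FOXO1 averaged 10.9, 5.31 and 149 CPM and FOXO3 59.7, 205 and 134 CPM.

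All 5 genes that set the turnover of the MCL1 protein were tested. In PEO-4 against T1074, 1 was higher, the ubiquitin ligase HUWE1 (0.63 ± 0.130, edgeR adjusted p = 0.000551), and none was lower. In SKOV-3 against T1074, 2 were higher and 2 lower, and in PEO-4 against SKOV-3, 2 were higher and 3 lower, with medians of -0.05, 0.17 and -0.31. The share of all genes that differed was 74.1%, 67.8% and 75.2%. HUWE1 and the deubiquitinase USP9X were higher in SKOV-3 than in T1074 (0.93 and 0.72), MARCHF5 was lower (-0.48), and FBXW7 was lower in PEO-4 than in SKOV-3 (-0.35, edgeR adjusted p = 0.0110).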

How the data were processed

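RNA-seq of 12 libraries, 4 per line, was analysed. Reads were demultiplexed with bcl2fastq 2.20.0.422, trimmed with Trimmomatic 0.39, aligned to hg38 with STAR 2.7.3a and quantified with RSEM 1.3.1 on Gencode transcripts, according to the submitters' processing notes and the published methods. For each of 244939 transcripts the authors deposited an expected count, which is not normalized, and a TPM, which corrects for effective length. The length columns served only the counts scaled by transcript length. Labels name the molecule as protein, whereas values and methods are those of RNA-seq.

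Expected counts were summed per gene ID and rounded, symbols came from GENCODE 44 (61415 gene IDs matched, 118 did not), and edgeR 4.0.16 in R 4.3.3 was fitted to all genes and, apart, all transcripts (filterByExpr by line, TMM, Benjamini-Hochberg adjustment, threshold 0.05). Between 32.0% and 39.0% of expected counts were not whole. Products are coding transcripts of equal coding length whose versioned ID is in GENCODE 44. DESeq2 1.42.0, limma 3.58.1 on log2(TPM + 0.1) (added after seeing the data), other scalings and filters, a replicate block and fits without each library were alternatives, and the tests were tried on simulated data. Replicates of a line differed by more than sampling noise. Same-numbered libraries did not deviate together (correlation of deviations -0.08 to 0.07 over 12 pairs), so that numbers were not used to pair them.

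The text names all 10 members, the 11 further family genes, the 4 genes of highest mean TPM in each other list, and products with at least 10% of a gene's coding TPM in at least 1 line. Transcripts that encode no such product (BID-201, MCL1-206 and BBC3-205) were named after their values were seen. BIRC7 and TNFRSF10C were named because each passed the filter on low counts only through SKOV-3. FOXO1 and FOXO3 were named, after their values were seen, so that every regulator of BH3-only genes is shown. 1 further list of genes is not reported here. Members and lists were chosen with earlier results of these data known.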

Additional observations from a re-analysis of the deposited data

Results flagged for a closer look

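T1074 replicate 3 stood apart from the other 3 libraries of its line for 2 members. BCL2L1 was at 211 CPM there, against 91.2 to 109 CPM in the others, and the gap to the next library was 0.848 of the range of the group. BID was at 35.4 CPM, against 26.5 to 27.7 CPM, with a gap of 0.873 of the range. Both gaps were above the 95% critical value of Dixon's test for 4 samples. In all, 30 groups of 4 libraries (10 genes in 3 lines) were looked at, and chance alone marks about 1 group in 20. BCL2L1 in PEO-4 and SKOV-3 with and without that library is given above, and the BID differences passed either way.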

How the results depend on the processing

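Counts of members that differed were 5 to 7, 6 to 9 and 5 to 6 when each library was left out in turn. For SKOV-3 against T1074 the count fell from 9 to 5 with library size only and to 4 with TPM as deposited, chosen after seeing the data. Library size only moved the median of all genes to -0.17 and -0.23 against T1074. The replicate block gave 6, 8 and 5. It ended 1 call of a member, that of BBC3 in SKOV-3 against T1074 (log2 0.38, edgeR adjusted p = 0.0533). MCL1 changed sign against T1074 in PEO-4 (0.0136 with DESeq2, 0.0137 with RLE scaling, 0.0018 with a minimum of 1 CPM, 0.0477 with 8 libraries, 0.0992 length-scaled, -0.104 to 0.113 by library left out) and in SKOV-3 (0.0987 length-scaled, 0.0211 without a filter, -0.111 to 0.0119 by library left out). Between the carcinoma lines it changed with no filter (-0.0367), by library left out (-0.0168 to 0.13) and by TPM (-0.24). BAK1 did so there with no filter (-0.0450), the replicate block (-0.0029), TPM (-0.22) and libraries left out (-0.0589 to 0.11), and BAX length-scaled (-0.0589) and by TPM (-0.28). TPM also turned BCL2L11 (-0.12) there, BCL2L1 (-0.53), BAK1 (-0.46), BCL2L11 (-0.26) and BIK (-0.40) in PEO-4 and BAK1 (-0.24), BCL2L11 (-0.14) and BBC3 (-0.16) in SKOV-3 against T1074, and library size BCL2L1 in PEO-4 (-0.0095). With all transcripts as denominator, differences in leading-product shares changed sign for BBC3 (-10.5 and -20.2 points, PEO-4 against T1074 and SKOV-3), BCL2 (-0.667 and, by expected counts, -0.130), BCL2L11 (10.7), MCL1 in SKOV-3 (4.15) and PMAIP1 (-1.48). Causes were not tested. The shallowest library, T1074 replicate 1, held 19780836 counts.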
